A study of Caenorhabditis elegans with 10 samples.

Results

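The levels of 10 *C. elegans* genes that encode RNA-binding proteins of the oocyte and early embryo, *oma-1*, *oma-2*, *mex-5*, *mex-6*, *mex-1*, *pos-1*, *pie-1*, *mex-3*, *puf-5* and *puf-11*, were followed in whole animals of 4 Met/SAM cycle mutants and of their parent strain. The genes were taken by name, with earlier results of these data known. All 10 were found among the 46903 genes of the table, and all 10 were among the 14418 tested, those whose level averaged 1 TPM or more over the libraries (TPM is an estimate of transcript abundance relative to all transcripts of the library). In *mtrr-1(ww56)* animals every one of the 10 was lower than in the parent in both libraries, by 2.04-fold for *pie-1* to 8.47-fold for *puf-5* in mean TPM. In *sams-1(ww51)* animals the 10 were lower than in the parent by less, at 1.09-fold to 1.98-fold. In *metr-1(ww52)* and *mthf-1(ww50)* animals their means lay between 0.938 and 1.38 times the parent mean. Replicate 2 was higher than replicate 1 for every one of the 10 genes in every strain, as for 18.6% of all genes tested. None of the differences passed the test fitted without the replicate number, where 0.0208% of all genes passed as lower in *mtrr-1(ww56)*. With the replicate number 8 of the 10 passed in *mtrr-1(ww56)*, where 1.06% of all genes passed as lower.

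These proteins control the maternal mRNAs that an oocyte stores and that the embryo uses before its own genome is switched on. They bind mRNAs, mostly in their 3' untranslated regions, and repress or permit translation, so that fates are set by where and when a stored message is read. The *oma-1*, *oma-2*, *mex-1*, *mex-5*, *mex-6*, *pos-1* and *pie-1* genes encode proteins with CCCH zinc fingers, *mex-3* encodes a KH domain protein, and *puf-5* and *puf-11* encode Pumilio family (PUF) proteins. In hermaphrodites the germline makes sperm first, in the fourth larval stage (L4), and then switches to oocytes, so transcripts of oocyte genes accumulate around the end of that stage.

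RNA was sequenced from *mtrr-1(ww56)*, *sams-1(ww51)*, *metr-1(ww52)* and *mthf-1(ww50)* animals and from the parent, with 2 biological replicates of each strain and 10 libraries in all. The mutated genes encode methylenetetrahydrofolate reductase (*mthf-1*), S-adenosylmethionine synthase (*sams-1*), methionine synthase (*metr-1*) and methionine synthase reductase (*mtrr-1*). All 5 strains carried the wwIs24 transgene, in which the *acdh-1* promoter drives GFP in the intestine next to an *unc-119(+)* marker, and the *nhr-10(tm4695)* deletion, so the series has no wild type. Each mutant is a single point allele from a chemical mutagenesis screen for GFP in the parent, backcrossed to it, and no other allele of these genes was analysed here. Animals kept at 0.64 nM vitamin B12 were synchronised by an 18 h arrest as L1 larvae and grown for 48 h on *E. coli* OP50 with 20 nM vitamin B12. The labels give the stage as L4 and at least 200 animals per library, while the methods describe animals picked as late L4 or early young adults. The germline, the oocytes, any sperm and the rest of the body were extracted together.

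Values are TPM, which are scaled to the same total in every library and corrected for transcript length. Levels can therefore be set side by side between genes. The methods give an approximate minimum number of reads per sample, but not the depth of each library. The count behind a value is therefore not known. Between 13752 and 14563 genes reached 1 TPM in a library. The mutated genes were higher in their own strain than in the parent (for example 112 to 137 TPM of *mtrr-1* in *mtrr-1(ww56)* and 19.9 to 24.6 TPM in the parent), and since the alleles are point mutations this level does not check the labels. No listed marker of germ cells, oocytes, sperm, gonadal sheath, intestine, muscle, neurons or hypodermis was at 0 in any library. Differences were tested with limma on log2(TPM + 1), and a gene was called at a Benjamini-Hochberg adjusted p under 0.01 and a fold change over 1.5. Equally numbered replicates of different strains deviated together over all genes, weakly in some pairs (r = 0.304 for the parent and *mtrr-1(ww56)*, range 0.166 to 0.736). Each result is therefore also given from a fit with the replicate number as a block, which removes what replicates of the same number share. In whole animals, fewer cells of a type and less RNA per cell cannot be told apart.

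*oma-1* and *oma-2* encode CCCH zinc finger proteins that act redundantly in oocyte maturation and repress translation in the growing oocyte. *oma-1* (WBGene00003864, IV:8888976-8890999 in the WBcel235 annotation) was at 12.96 and 18.76 TPM in the 2 *mtrr-1(ww56)* libraries, against 32.1 and 56.5 TPM in the parent. It was at 35.3 and 51.8 TPM in *metr-1(ww52)*, 21.2 and 35.8 TPM in *sams-1(ww51)* and 31.4 and 69.6 TPM in *mthf-1(ww50)*. Both *mtrr-1(ww56)* libraries thus lay below the other 8, while the libraries of the other 3 mutants overlapped the range of the parent. The mean was 15.9 ± 4.10 TPM in *mtrr-1(ww56)* and 44.3 ± 17.2 TPM in the parent (SD, n = 2 each). The log2 fold change was -1.39 (SE 0.468, adjusted p = 0.137 by limma), and with the block the SE was 0.162 and the adjusted p 0.00547.

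*oma-2* (WBGene00003865, V:8029439-8031214) was the lower of the pair in every library. It was at 4.55 and 6.89 TPM in *mtrr-1(ww56)*, against 14.7 and 41.5 TPM in the parent. The other mutants had 15.3 and 40.6 TPM (*metr-1(ww52)*), 9.27 and 21.4 TPM (*sams-1(ww51)*) and 12.6 and 55.8 TPM (*mthf-1(ww50)*). The 2 *mtrr-1(ww56)* libraries were again the lowest of the 10. The difference of *mtrr-1(ww56)* from the parent was larger in replicate 2 than in replicate 1, at -2.43 and -1.50 on the log2 scale, and *oma-2* was not called even with the block (log2 fold change -1.97, SE 0.329, adjusted p = 0.0139 by limma). The ratio of *oma-1* to *oma-2* was 2.85 and 2.72 in the *mtrr-1(ww56)* libraries, against 2.19 and 1.36 in the parent, and its range over the other 6 libraries was 1.25 to 2.49. This ratio was not tested.

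*mex-5* and *mex-6* encode closely related, largely redundant CCCH proteins that become concentrated at the anterior of the zygote and keep germline proteins out of the somatic cells. *mex-5* (WBGene00003230, IV:13353723-13356104) had the highest TPM of the 10 genes in every library. It was at 23.6 and 45.7 TPM in *mtrr-1(ww56)*, against 73.7 and 148.3 TPM in the parent. In *metr-1(ww52)* it was at 88.4 and 138.1 TPM, in *sams-1(ww51)* at 49.8 and 92.4 TPM and in *mthf-1(ww50)* at 76.9 and 182.6 TPM. Only *mtrr-1(ww56)* lay clear of the parent, and its higher library was below the lower library of *sams-1(ww51)*. The log2 fold change in *mtrr-1(ww56)* was -1.64 (SE 0.576, adjusted p = 0.145 by limma), and with the block the SE was 0.143 and the adjusted p 0.00435.

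*mex-6* (WBGene00003231, II:9524174-9526359) followed *mex-5* at a lower level, at 6.43 and 14.3 TPM in *mtrr-1(ww56)*, against 32.0 and 67.4 TPM in the parent. It was at 33.8 and 62.7 TPM in *metr-1(ww52)*, 16.5 and 39.8 TPM in *sams-1(ww51)* and 30.1 and 85.6 TPM in *mthf-1(ww50)*. Its difference of *mtrr-1(ww56)* from the parent was nearly the same in both replicate numbers, at -2.15 and -2.16 on the log2 scale. The fitted value was -2.16 (SE 0.692, adjusted p = 0.130 by limma, and SE 0.153, adjusted p = 0.00324 with the block). *mex-5* was 3.66 and 3.20 times *mex-6* in the *mtrr-1(ww56)* libraries, against 2.30 and 2.20 times in the parent and 2.13 to 3.02 times in the other mutants, with no test of this ratio.

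**Figure D1:**
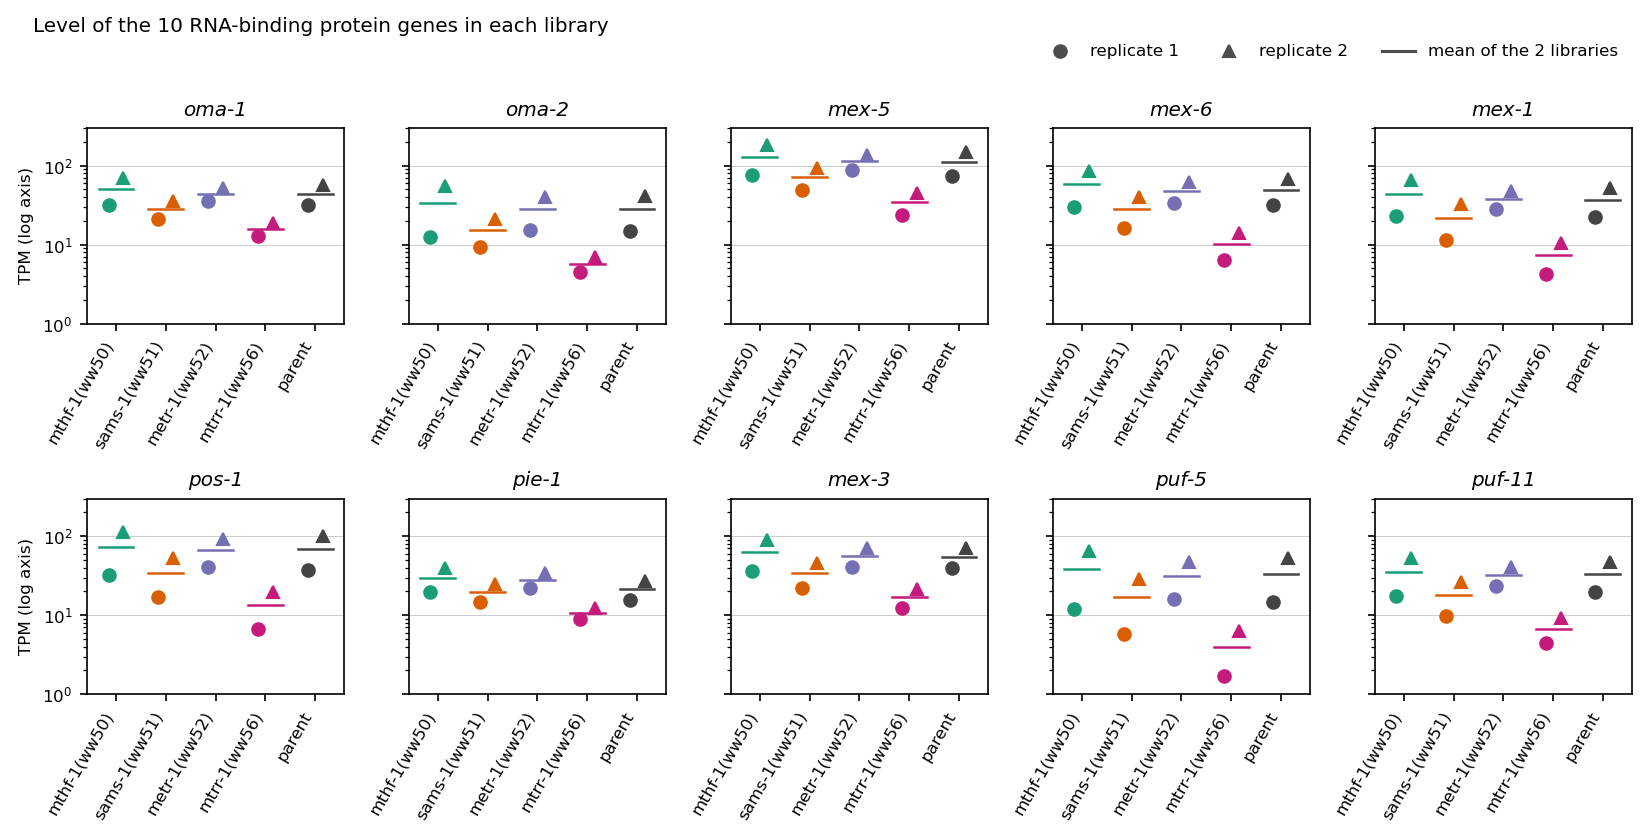
TPM of each of the 10 genes (log axis) in the 4 mutants and the parent, with circles for replicate 1, triangles for replicate 2 and a bar at the mean of the 2. In each panel the lowest library is *mtrr-1(ww56)* replicate 1 and the highest is *mthf-1(ww50)* replicate 2, and the triangle lies above the circle in all 5 strains.

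*mex-1*, *pos-1* and *pie-1* encode CCCH proteins that are kept in the germline lineage of the embryo. MEX-1 is needed to segregate germline factors, POS-1 is needed for the fates of posterior blastomeres and represses the Notch receptor mRNA *glp-1*, and PIE-1 keeps transcription off in the germline blastomeres. *mex-1* (WBGene00003228, II:11968637-11972330) was at 4.21 and 10.6 TPM in *mtrr-1(ww56)*, against 22.6 and 51.8 TPM in the parent. Its other values were 27.9 and 47.5 TPM in *metr-1(ww52)*, 11.5 and 32.5 TPM in *sams-1(ww51)* and 22.8 and 65.7 TPM in *mthf-1(ww50)*. In *mtrr-1(ww56)* its mean was 5.02-fold below that of the parent, with log2 differences of -2.18 and -2.19 in the 2 replicate numbers. The adjusted p was 0.138 by limma (log2 fold change -2.18, SE 0.734) and 0.00434 with the block (SE 0.185). Exons of *mex-1* share 18 bases with *acbp-6* on the other strand, and the methods give default settings for RSEM, which do not use strand, so reads of this stretch cannot be told apart.

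*pos-1* (WBGene00004078, V:8414086-8415254) was at 6.72 and 19.9 TPM in *mtrr-1(ww56)*, against 37.2 and 99.7 TPM in the parent. *metr-1(ww52)* had 40.2 and 92.8 TPM, *sams-1(ww51)* 16.8 and 52.4 TPM and *mthf-1(ww50)* 32.6 and 112.8 TPM. Both *mtrr-1(ww56)* libraries were below both parent libraries, but *sams-1(ww51)* replicate 1 lay between the 2 *mtrr-1(ww56)* libraries. The mean was 13.3 ± 9.29 TPM in *mtrr-1(ww56)* and 68.5 ± 44.3 TPM in the parent (SD, n = 2 each). With a log2 fold change of -2.29 it had the smallest adjusted p of the 10 genes with the block (0.00219, SE 0.145), where limma without the block gave 0.169 (SE 0.890).

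*pie-1* (WBGene00004027, III:12426893-12429195) differed least between strains. It was at 8.86 and 12.2 TPM in *mtrr-1(ww56)*, against 15.7 and 27.2 TPM in the parent, and the 2 groups did not overlap. In *metr-1(ww52)* it was at 22.2 and 34.2 TPM and in *mthf-1(ww50)* at 19.6 and 39.4 TPM, above the equally numbered parent library in each case. In *sams-1(ww51)* it was at 14.8 and 24.6 TPM, 0.943 and 0.904 times the equally numbered parent library. The log2 fold change in *mtrr-1(ww56)* was -0.93 and was called neither without nor with the block (adjusted p = 0.225 and 0.0113 by limma, SE 0.436 and 0.143). *pie-1* shares 24 exonic bases with *snr-6* on the other strand.

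*mex-3* encodes a KH domain protein that represses the homeobox mRNA *pal-1* in the anterior of the embryo and acts in the germline. *mex-3* (WBGene00003229, I:127285-134270) was at 12.3 and 21.3 TPM in *mtrr-1(ww56)*, against 39.1 and 70.5 TPM in the parent. It was at 40.6 and 71.9 TPM in *metr-1(ww52)*, 22.3 and 45.9 TPM in *sams-1(ww51)* and 36.0 and 90.6 TPM in *mthf-1(ww50)*. Both *mtrr-1(ww56)* libraries were below the other 8, at 0.314 and 0.303 times the equally numbered parent library. The log2 fold change was -1.64 (SE 0.581, adjusted p = 0.148 by limma), and with the block the SE was 0.151 and the adjusted p 0.00435.

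*puf-5* and *puf-11* encode PUF proteins that act in late oogenesis. *puf-5* (WBGene00004241, II:8575541-8577787) had the widest range of the 10 genes, 38.1-fold between its lowest and highest library. It was at 1.69 and 6.27 TPM in *mtrr-1(ww56)*, against 14.8 and 52.6 TPM in the parent. *metr-1(ww52)* had 15.9 and 47.3 TPM, *sams-1(ww51)* 5.86 and 28.5 TPM and *mthf-1(ww50)* 11.9 and 64.3 TPM. As for *pos-1*, *sams-1(ww51)* replicate 1 was below *mtrr-1(ww56)* replicate 2. The mean in *mtrr-1(ww56)* was 8.47-fold below the parent, and the log2 fold change was -2.72 (SE 1.11, adjusted p = 0.184 by limma, and SE 0.235, adjusted p = 0.00435 with the block). The pseudocount of 1 TPM shrinks the fold change of so low a gene, and with a pseudocount of 0.1 the log2 fold change was -3.05.

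*puf-11* (WBGene00022257, IV:6421585-6423497) was at 4.41 and 9.10 TPM in *mtrr-1(ww56)*, against 19.5 and 46.9 TPM in the parent. It was at 23.3 and 41.2 TPM in *metr-1(ww52)*, 9.81 and 26.3 TPM in *sams-1(ww51)* and 17.4 and 52.5 TPM in *mthf-1(ww50)*. The log2 fold change in *mtrr-1(ww56)* was -2.08 (SE 0.717, adjusted p = 0.142 by limma, and SE 0.194, adjusted p = 0.00435 with the block). *puf-3* is a near-identical copy of *puf-11*, so reads of the pair may have been split between them and the level of each is uncertain. *puf-3* was itself at 3.76 and 12.8 TPM in *mtrr-1(ww56)*, against 28.2 and 71.4 TPM in the parent. The ratio of *puf-11* to *puf-5* was above 1 in every replicate 1 library and in both *mtrr-1(ww56)* libraries (2.61 and 1.45), and it was 0.816 to 0.925 in replicate 2 of the other mutants and the parent.

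The 10 genes were chosen with earlier results of these data known and moved together over the libraries. Their counts beside those of all genes are therefore a description and not a test. Over the whole set, both *mtrr-1(ww56)* libraries lay below both parent libraries for 10 of the 10 genes, as for 22.1% of all genes tested. All 10 were also over 1.5-fold lower in TPM than the equally numbered parent library in both replicate numbers, as were 5.09% of all genes. For 8 of the 10, all but *pos-1* and *puf-5*, both *mtrr-1(ww56)* libraries were the lowest of the 10 libraries, as for 9.62% of all genes. The median log2 fold change of the 10 genes was -2.03, while that of all genes tested was 0.05. None of the 10 was called by limma without the block, where 0.0208% of all genes were called lower, although 8 of the 10 were lower with an unadjusted p under 0.05, as were 7.13% of all genes. With the block, 8 of the 10 were called lower, all but *oma-2* and *pie-1*, where 1.06% of all genes were. Over the other alternatives the adjusted p of a single gene ranged from 0.0899 to 0.642 without the block and from 0.00172 to 0.0774 with it.

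When 1 library was left out, fewer or none of the 10 were called with the block. Each such fit leaves 1 strain with 1 library, and the share of all genes called in it is not given. The fall in calls therefore cannot be read as particular to the 10 genes. The log2 fold changes in these fits moved least for *mex-1*, between -2.21 and -2.16, and most for *oma-2*, between -2.46 and -1.47, and all 10 stayed below 0. Without the block, the median log2 fold change of the 10 genes was -2.68 without parent replicate 1 and -1.36 without parent replicate 2, and all 10 stayed below 0.

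**Figure D2:**
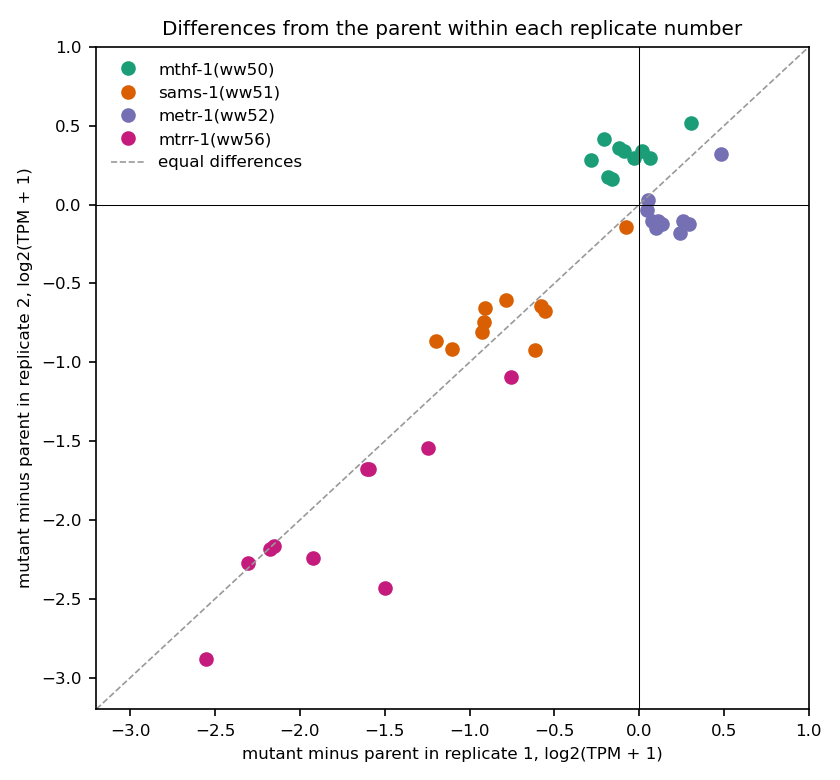
Difference of each mutant from the parent in log2(TPM + 1), for replicate 1 on the horizontal axis and replicate 2 on the vertical axis, with a point for each of the 10 genes in each mutant and a dashed line where both are equal. For each gene the *mtrr-1(ww56)* point lies lowest on both axes, down to -2.55 and -2.88 for *puf-5*. The *sams-1(ww51)* points lie below 0 on both axes and overlap those of *mtrr-1(ww56)* on the horizontal axis. The *metr-1(ww52)* and *mthf-1(ww50)* points lie around 0, up to 0.48 and 0.32 for *pie-1* in *metr-1(ww52)* and 0.31 and 0.52 in *mthf-1(ww50)*.

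The difference of *mtrr-1(ww56)* from the other 3 mutants was tested directly. The log2 fold changes against their mean were -2.37 for *puf-5*, -2.01 for *mex-1*, -1.95 for *pos-1*, -1.92 for *mex-6*, -1.81 for *puf-11*, -1.75 for *oma-2*, -1.52 for *mex-5*, -1.46 for *mex-3*, -1.24 for *oma-1* and -1.16 for *pie-1*. All 10 were lower with an unadjusted p under 0.05, as were 13% of all genes, but none was called without the block (adjusted p = 0.143 to 0.208 by limma), where 0.0347% of all genes were called lower. With the block 9 of the 10 were called lower, all but *oma-2* (adjusted p = 0.0183), where 0.805% of all genes were. When any 1 of the 10 libraries was left out none was called, in fits that are given without the share of all genes called. Within each replicate number, *mtrr-1(ww56)* was the lowest of the 5 strains for all 10 genes, as for 15.3% of all genes.

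In *sams-1(ww51)* the 10 genes were lower than in the equally numbered parent library in both replicate numbers, as were 28.5% of all genes, and for 8 of them (all but *mex-5* and *pie-1*) the difference was over 1.5-fold in both, as for 5.0%. No gene of the 10 had both *sams-1(ww51)* libraries below both parent libraries, as 18.8% of all genes had. The log2 fold changes were -0.11 for *pie-1*, -0.61 for *oma-1*, -0.62 for *mex-5*, -0.70 for *mex-3*, -0.77 for *oma-2*, -0.78 for *mex-1*, -0.83 for *mex-6*, -0.87 for *puf-11*, -1.01 for *pos-1* and -1.03 for *puf-5*, with a median of -0.78 beside 0.04 for all genes. None was called without the block (adjusted p = 0.535 to 0.910 by limma), where 0.0139% of all genes were called lower, and none with it (adjusted p = 0.0115 for *pos-1* to 0.665 for *pie-1*), where 0.229% were. At an unadjusted p under 0.05, 0 of the 10 passed without the block, where 2.93% of all genes were lower, and 8 with it, where 9.29% were. At an adjusted p under 0.05 and the same fold, 7 of the 10 passed with the block, as did 1.86% of all genes. Against the mean of the other 3 mutants, which includes *mtrr-1(ww56)*, the 10 values were between -0.25 and -0.07, and none was called with or without the block (0.0% of all genes called lower in both).

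In *metr-1(ww52)* and *mthf-1(ww50)* no difference from the parent was called for any of the 10 genes, with or without the block. Without the block 0.0416% of all genes were called lower and 0.25% higher in *metr-1(ww52)*, and 0.0347% lower and 0.153% higher in *mthf-1(ww50)*. With it these shares were 0.111% lower and 0.409% higher in *metr-1(ww52)*, and 0.0624% lower and 0.243% higher in *mthf-1(ww50)*. *pie-1* had the largest value in both, 0.40 in *metr-1(ww52)* and 0.41 in *mthf-1(ww50)* on the log2 scale (adjusted p = 0.187 in both with the block). The other 9 genes lay between -0.02 and 0.09 in *metr-1(ww52)* and between -0.0029 and 0.18 in *mthf-1(ww50)*. With the block the 95% intervals of these 9 reached from -0.79 to 0.81 in *metr-1(ww52)* and from -0.69 to 0.90 in *mthf-1(ww50)*, with *oma-2* the widest. Without it they reached from -2.66 to 2.61 in *metr-1(ww52)* and from -2.63 to 2.63 in *mthf-1(ww50)*, with *puf-5* the widest. No direction is given for these 2 strains, because rescaling the libraries by median ratios moved the number of the 10 genes below 0 to 9 in *metr-1(ww52)* and 4 in *mthf-1(ww50)*, against 2 and 1 without it. That scaling moved the parent replicate 1 values by 0.10 on the log2 scale, while in *mtrr-1(ww56)* and *sams-1(ww51)* all 10 genes were below 0 under each scaling.

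**Figure D3:**
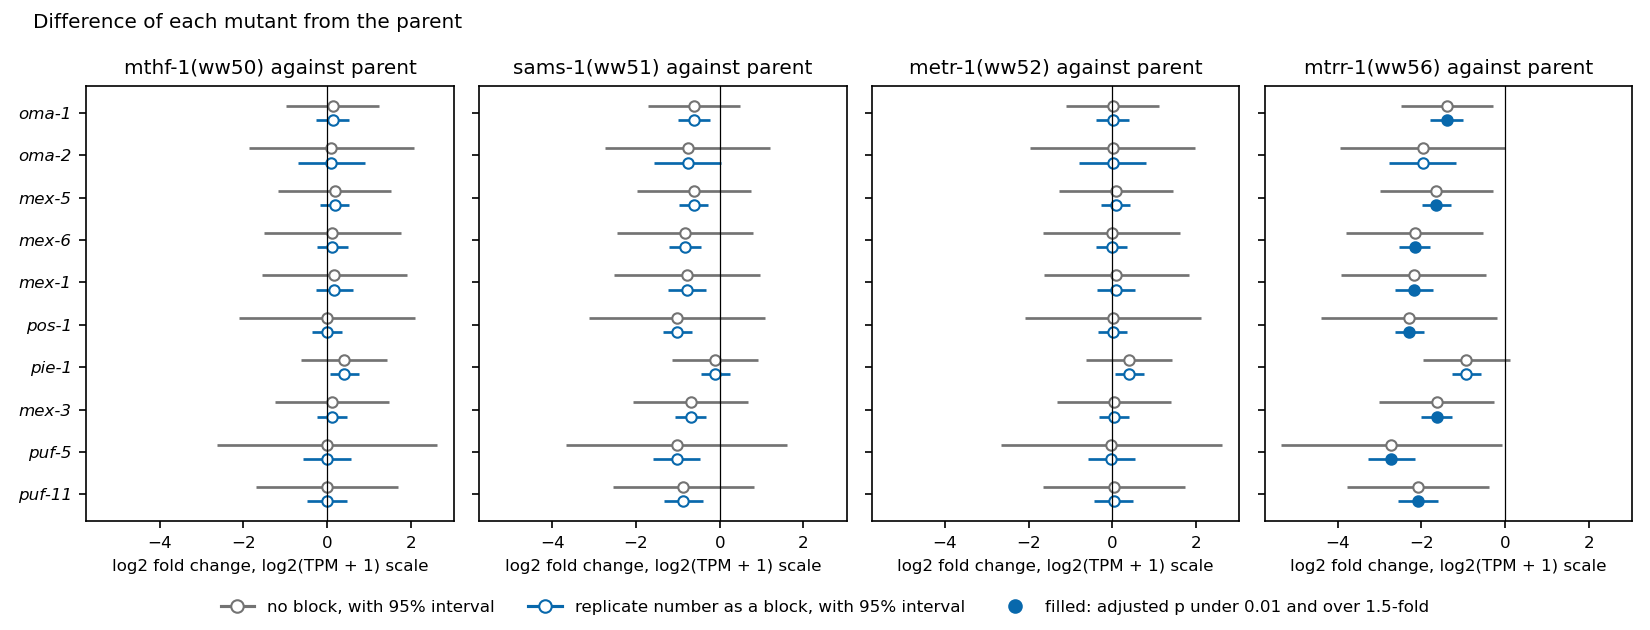
Log2 fold change of each of the 10 genes in each mutant against the parent on the log2(TPM + 1) scale, from the limma fit without the block (grey) and with the replicate number as a block (blue), with 95% intervals. Filled points passed an adjusted p of 0.01 and a fold change of 1.5, which 8 of the 10 genes did, all in *mtrr-1(ww56)* and all with the block.

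For the mean of the 4 mutants against the parent, the log2 fold changes were -0.06 for *pie-1* to -0.94 for *puf-5*. None was called without the block (adjusted p = 0.520 to 0.941 by limma, 0 of 10 with an unadjusted p under 0.05, beside 3.35% of all genes lower at that p), where 0.0277% of all genes were called lower. With the block *pos-1* alone was called lower (log2 fold change -0.82, SE 0.114, adjusted p = 0.00956), where 0.381% of all genes were, and it was no longer called without any 1 of the 10 libraries. Ordered by mean TPM, every one of the 10 genes ran from *mtrr-1(ww56)* at the bottom through *sams-1(ww51)* to the parent and *metr-1(ww52)*, with *mthf-1(ww50)* at the top. Of the strain contrasts tested, only *mtrr-1(ww56)* against the parent and *mtrr-1(ww56)* against the other 3 mutants had more than 1 of the 10 genes called, both with the block. The order of the parent, *metr-1(ww52)* and *mthf-1(ww50)* was within the spread of their libraries.

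The 2 replicate numbers differed as well. Replicate 2 was above replicate 1 for 10 of the 10 genes in all 5 strains, as for 18.6% of all genes. The median ratio of replicate 2 to replicate 1 over the 10 genes was 1.77 in *metr-1(ww52)*, 2.36 in *sams-1(ww51)*, 2.86 in *mthf-1(ww50)*, 2.00 in *mtrr-1(ww56)* and 2.20 in the parent. *puf-5* had the largest ratio in each strain, at 2.97 in *metr-1(ww52)* to 5.39 in *mthf-1(ww50)*, and *oma-1* or *pie-1* the smallest. Neither the labels nor the methods say what the replicate numbers stand for. The 10 genes moved together over the libraries, with Pearson correlations of log2(TPM + 1) between 0.957 (*pos-1* and *pie-1*) and 0.998 (*mex-1* and *mex-6*) over the 45 pairs. These correlations describe 10 libraries that share strains and replicate numbers and are given without a test.

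Outside the 10 genes, the pattern most like their standardised mean over the 10 libraries was that of *cyb-2.2* (r = 0.999) and *cyb-2.1* (r = 0.998), which encode B-type cyclins. They were followed by *spn-4*, an RNA-binding protein gene of the early embryo, and *rme-2*, the yolk receptor of the oocyte, both at r = 0.998. *gfat-2*, *clec-88*, *fbxa-215*, *lin-41*, *trcs-1* and *gyg-2* made up the rest of the closest 10 (r = 0.996 to 0.997). All 10 of these genes were lowest in *mtrr-1(ww56)* replicate 1. *cyb-2.2* spanned 8.04 to 61.8 TPM and *rme-2* spanned 3.05 to 45.7 TPM. In all, 288 genes had an r above 0.95.

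A list of 24 other regulators of germline and maternal mRNAs had a median log2 fold change of -0.76 in *mtrr-1(ww56)*, and 20 of the 24 were below 0. None was called without the block, and with it 10 were called lower and 0 higher, where 1.06% of all genes were called lower and 3.11% higher. *gld-1*, a KH domain repressor of oocyte mRNAs in the distal germline, was at 84.9 and 149.5 TPM in *mtrr-1(ww56)*, against 232.7 and 338.3 TPM in the parent (log2 fold change -1.31, adjusted p = 0.104 by limma and 0.00435 with the block). *lin-41*, a TRIM-NHL protein of the growing oocyte that works with the OMA proteins, was at 4.86 and 9.88 TPM, against 15.6 and 30.3 TPM in the parent (-1.52, adjusted p = 0.165 and 0.00435 with the block). *car-1*, which encodes a germline RNP component, had a log2 fold change of -1.17 and *nos-1*, a Nanos gene, of -1.25, and both were called lower with the block. *fog-1*, a CPEB protein that promotes the sperm fate, stood on the other side, at 12.4 and 9.63 TPM in *mtrr-1(ww56)*, against 2.93 and 4.94 TPM in the parent (1.31, adjusted p = 0.0593 and 0.0195 with the block).

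Among 16 genes for kinases, polarity and turnover factors that act on these proteins, the median in *mtrr-1(ww56)* was -0.21. None was called without the block, and 2 were called lower with it, where 1.06% of all genes were. Both, *egg-4* and *egg-5*, encode pseudophosphatases that hold the kinase MBK-2 in the oocyte, the kinase that marks OMA-1 for degradation. *egg-5* was at 2.95 and 5.67 TPM in *mtrr-1(ww56)*, against 13.2 and 26.3 TPM in the parent. Of the maternal mRNAs that the 10 proteins bind or control, 8 of 9 were tested, *cdc-25.3* being under 1 TPM on average. Their median was -0.67, and *apx-1*, the Notch ligand mRNA of the early embryo, was called lower with the block (log2 fold change -1.12, adjusted p = 0.00517, against 0.168 without it). *glp-1* was at 8.68 and 9.04 TPM in *mtrr-1(ww56)*, against 11.5 and 17.0 TPM in the parent, and was not called (adjusted p = 0.192 by limma, 0.0482 with the block). *nos-2* was at 1.21 and 2.15 TPM, against 5.07 and 11.8 TPM in the parent, and was not called either (adjusted p = 0.0120 with the block).

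Markers of other cell types were read in the same libraries. The oocyte surface and eggshell list (9 genes) moved with the 10 genes, with a median of -2.32 in *mtrr-1(ww56)*. With the block 6 of 9 were called lower, where 1.06% of all genes were, and without it none. The summed level of the list was 65.3 and 349.8 TPM in *mtrr-1(ww56)*, against 588 and 1181 TPM in the parent. *perm-2* and *perm-4* were the highest genes of the list in both strains and weigh most in this sum. *perm-2* was at 13.2 and 133.3 TPM in *mtrr-1(ww56)*, against 220.5 and 388.0 TPM in the parent. These genes had the lowest r of the list with the mean of the 10 genes (0.911 for *perm-2* and 0.907 for *perm-4*). *rme-2* was at 3.05 and 8.22 TPM in *mtrr-1(ww56)*, against 15.8 and 38.5 TPM in the parent (log2 fold change -2.08, adjusted p = 0.150 by limma and 0.00219 with the block). The germ cell list (14 genes) moved less, with a median of -0.23. With the block 1 of 14, *glh-2*, was called lower, where 1.06% of all genes were, and without it none. *pgl-1*, a P granule component, was at 71.9 and 107.8 TPM in *mtrr-1(ww56)*, against 142.9 and 147.2 TPM in the parent (-0.71, adjusted p = 0.0218 with the block). Set against the mean of the germ cell list on the log2 scale, the mean of the 10 genes was at -2.08 and -1.56 in *mtrr-1(ww56)* and at -1.37 and -0.17 in *sams-1(ww51)*, against -0.68 and 0.28 in the parent. Set against the oocyte surface list it stayed between -0.48 and 0.15 in all 10 libraries.

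**Figure D4:**
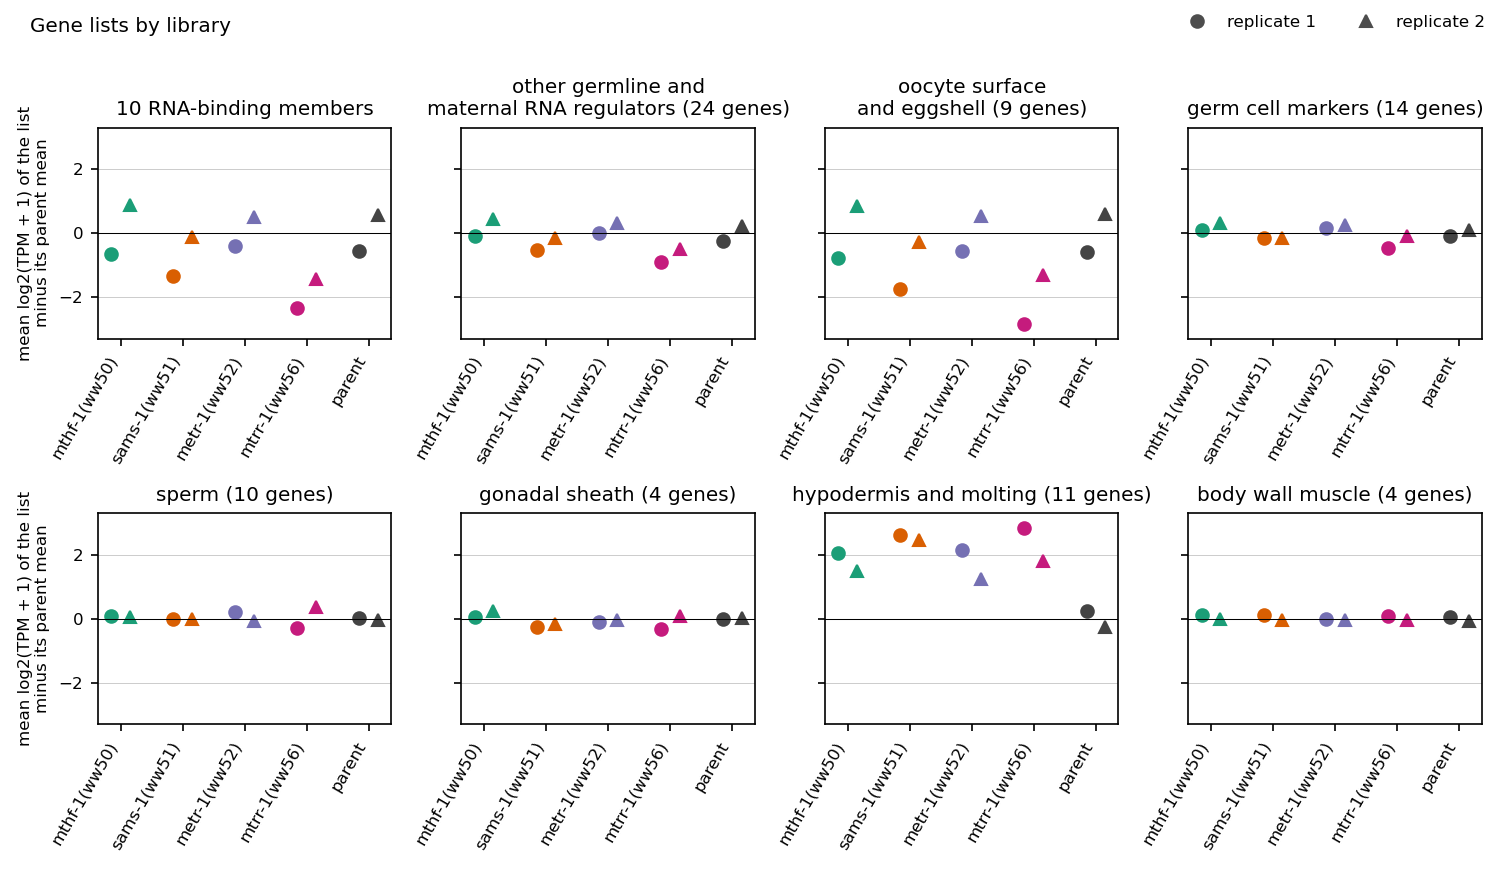
Mean log2(TPM + 1) of each gene list in each library minus its mean in the parent, with circles for replicate 1 and triangles for replicate 2. The 10 RNA-binding members and the oocyte surface and eggshell genes spread widely (down to -2.35 and -2.86 in *mtrr-1(ww56)*), germ cell, sperm, sheath and muscle genes stay between -0.48 and 0.38, and the hypodermis and molting genes are above the parent mean in every mutant library.

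The sperm list (10 genes) had a median of -0.36 in *mtrr-1(ww56)*, and its summed level was 681 and 1474 TPM there, against 1453 and 1483 TPM in the parent. Of its genes, 7 were below 0 and 3 above in *mtrr-1(ww56)*. The only call in the list was *fog-3*, which promotes the sperm fate. It was higher with the block, where 3.11% of all genes were called higher (log2 fold change 2.77, adjusted p = 0.00336 by limma, against 0.0515 without it). *fog-3* was at 46.7 and 40.7 TPM in *mtrr-1(ww56)*, against 6.71 and 4.55 TPM in the parent, and at 9.24 to 25.2 TPM in the other mutants. None of the gonadal sheath (4 genes), intestine (7), body wall muscle (4) or neuron (5) genes was called in *mtrr-1(ww56)*, and their medians were -0.14, -0.58, 0.03 and 0.48.

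Genes of the hypodermis and molting (11 genes) moved with strain and replicate as well. Their summed level was 7332 and 4793 TPM in *mtrr-1(ww56)*, 6309 and 5866 TPM in *sams-1(ww51)*, 6758 and 4061 TPM in *metr-1(ww52)* and 6030 and 3982 TPM in *mthf-1(ww50)*, against 4088 and 2872 TPM in the parent. With the block, 6 of 11 were called higher in *mtrr-1(ww56)*, where 3.11% of all genes were, with a median of 2.02. In *sams-1(ww51)* 6 were called higher with the block, where 2.46% of all genes were, with a median of 2.33. None was called in either strain without the block. None was called with the block in *metr-1(ww52)* and *mthf-1(ww50)*, with medians of 1.97 and 1.68. In each mutant the summed level was above that of the equally numbered parent library. *col-19*, an adult cuticle collagen, was at 11 and 629 TPM in *mtrr-1(ww56)*, 1.0 and 159.7 TPM in *sams-1(ww51)*, 32.6 and 356.3 TPM in *metr-1(ww52)* and 100.2 and 837 TPM in *mthf-1(ww50)*, against 370.5 and 1162 TPM in the parent. Each mutant library was thus below the equally numbered parent library. In each mutant *col-19* was the only 1 of the 11 hypodermis and molting genes below 0, and the other 10 were above 0. *vit-2*, an adult yolk protein, was at 54.7 and 563 TPM in *mtrr-1(ww56)*, 496 and 1180 TPM in *sams-1(ww51)*, 62.1 and 937 TPM in *metr-1(ww52)* and 97.2 and 1324 TPM in *mthf-1(ww50)*, against 305.4 and 1437 TPM in the parent. It was below the equally numbered parent library in all mutant libraries but *sams-1(ww51)* replicate 1. *vit-2*, from the intestine list, was not called in *mtrr-1(ww56)* (adjusted p = 0.506 by limma and 0.0824 with the block). Of the 7 intestine genes, 5 were below 0 in *mtrr-1(ww56)* and 2 above. In all 5 strains replicate 2 had the higher level of *col-19* and *vit-2*, which were named after their values were seen. The part of developmental stage in the differences of the 10 genes was not tested.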

How the data were processed

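Whole-animal RNA of 10 libraries was analysed, 2 biological replicates of each of 5 strains. Per the labels and the study's methods, the authors mapped 100 bp paired-end BGISEQ reads with bowtie2 to the WormBase WS271 genome and, with RSEM at its default settings, estimated transcript abundance as TPM. The deposited table holds TPM for 46903 genes, with the same sum in every library. The methods state only an approximate minimum of reads per sample, so the depth of each library, counting error and floors are not given. The labels also name DESeq2 and R 3.6.3, which the methods state for later libraries of another protocol and not for these. Columns were matched to samples by name, and 0 were left unassigned. Symbols were found for 44018 genes.

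Genes averaging 1 TPM or more over the libraries were tested with limma 3.58.1 (R 4.3.3) on log2(TPM + 1), with a mean for each strain over all 10 libraries, eBayes with a trend, and Benjamini-Hochberg adjustment over 14418 genes in each contrast, two-sided. Calls needed an adjusted p under 0.01 and a fold change over 1.5. Fold changes on this scale understate the change of low genes. An exact test of 2 against 2 libraries cannot go below p = 0.333 and was not used. The fit without the block was tested on simulated data with independent noise in each library, and the fit with the block was not. Python 3.11.15 with pandas 2.3.3, numpy 2.4.6 and matplotlib 3.10.9 made the tables and plots.

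The labels number the replicates 1 and 2 in each strain. The differences of replicate 2 from replicate 1 correlated over genes in all 10 pairs of strains (r = 0.166 to 0.736), so the numbers were taken to pair the libraries, and the replicate block is given beside each result it changes. Neither labels nor methods say that equal numbers were grown together.

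The alternatives tried were no filter or one at 5 TPM, a pseudocount of 0.1, median-ratio scaling, quantile normalization, the replicate block, an adjusted p of 0.05, no trend, each mutant with the parent alone, and each library left out. Combinations of the block with these were added once values had been seen. The 10 genes and the lists were chosen with earlier results of these data known. All 10 are described. Of other lists, the text names up to 4 genes with the smallest p in *mtrr-1(ww56)* or in the mean of the 4 mutants against the parent, and *gld-1*, *lin-41*, *glp-1*, *pgl-1* and *rme-2*. *puf-3*, *col-19* and *vit-2* were named after their values were seen. The like pattern is the highest Pearson r of log2(TPM + 1) with the mean of the 10 standardised genes. Positions are from the WBcel235 annotation. Sequences were not used here.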

Additional observations from a re-analysis of the deposited data

How the results depend on the processing

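Without the replicate block, 0 of the 10 genes were called in each of the 7 contrasts, under every other alternative and without any 1 library. All 10 were below 0 in *mtrr-1(ww56)* against the parent and against the other 3 mutants in each of these fits. With the replicate block the number called was 8 in *mtrr-1(ww56)* against the parent, 9 in *mtrr-1(ww56)* against the other 3 mutants, 1 in the mean of the 4 mutants against the parent and 0 in the other 4 contrasts. With the block and an adjusted p of 0.05, 7 were called in *sams-1(ww51)* against the parent and 5 in the mean of the 4 mutants. With the block and median-ratio scaling, 1 was called in *sams-1(ww51)* against the parent, and with the block and no trend 0 in the mean of the 4 mutants. Under the other combinations with the block, 8 to 10 were called in *mtrr-1(ww56)* against the parent and 7 to 10 against the other 3 mutants. Of these combinations, the share of all genes is given only for *sams-1(ww51)* at an adjusted p of 0.05 (1.86% lower). The other counts are given without that share and were not compared with all genes. Leaving out 1 library with the block gave fewer or no calls in *mtrr-1(ww56)* against the parent. It gave none in the mean of the 4 mutants and in *mtrr-1(ww56)* against the other 3. The share of all genes called was not set beside these. These fits have fewer libraries, and where a strain is left with 1 library it is assumed to vary like the others. Changing 1 choice at a time, without the combinations, gave 1300 values of single genes. Of these, 18 passed the test where the fit of all libraries without the block did not, all in the replicate block fit. The sign of the log2 fold change differed in 91 of them, 27 in *mthf-1(ww50)* against the parent, 30 in *metr-1(ww52)* against the parent, 25 in *sams-1(ww51)* against the other 3 mutants, 6 in the mean of the 4 mutants, 3 in *sams-1(ww51)* against the parent and 0 in both *mtrr-1(ww56)* contrasts. In 1 of the 91 the value had been larger than its SE, *mex-5* in the mean of the 4 mutants without parent replicate 2, at 0.000225, where leaving out 1 library in turn gave -0.999 at the lowest and the fit of all libraries gave -0.499 (adjusted p = 0.590 by limma). In *sams-1(ww51)* the median log2 fold change ranged from -1.39 to -0.19, and in *mthf-1(ww50)* from -0.59 to 0.87, over the alternatives. TPM keeps no depth, and the methods give only an approximate minimum of reads per sample. Which low values are limited by counting was therefore not determined.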
